A study of Mus musculus with 8 samples.

Results

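Collagen chain genes were read out in the NAc (nucleus accumbens, the part of the ventral striatum that links reward to action) of male C3H/HeN mice (C3H/Hen in the labels) after maternal separation (MS). The members were all probes of the array, controls left out, whose gene name is Col, a number, the letter a and a number. This gave 68 probes of 43 genes among 55681 probes, and the choice used no measured value. In the MS group, pups were separated daily from postnatal day 2 to postnatal day 14 while their dams underwent unpredictable stress, and in the control group pups stayed with their dams. All mice were weaned on postnatal day 21, and per the methods of the study they worked for a palatable food reward as adults and were food-deprived before sampling. There were 4 MS mice and 4 control mice, with 1 single-colour Agilent array each, and RNA came from whole-tissue micropunches. Expression is given as log2 signal relative to the 75th percentile of the array, so that a negative level lies below that percentile, and levels of different probes cannot be set against each other.

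Collagens are secreted or membrane proteins of the extracellular matrix in which 3 chains wind into a triple helix, and glycine at 1 of every 3 residues lets the chains pack. Fibrillar chains form the fibrils of skin, bone and vessel walls, type IV chains form the network of basement membranes, and type VI chains form beaded filaments. In the brain, collagen is held mainly by meninges, vessel walls and their basement membranes, while transmembrane collagens such as those of Col23a1 and Col25a1 have a single chain type anchored in the plasma membrane. Chains are hydroxylated and glycosylated in the endoplasmic reticulum, trimmed outside the cell by proteinases, cross-linked by lysyl oxidases and degraded by matrix metalloproteinases.

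A pair of sequences shows what the probes and genes are. The glycine repeat can be read in 1 of the tested probes, a 60-base probe of Col25a1 at chr3:130270497-130270556 on the plus strand (mm9, the build of the array headers). Printed below as on the array, it has 6 consecutive codons for glycine, GGN, spaced by 9 bases (capitals), and such a register across the whole probe was found in 2 of the 68 collagen probes and in 7 of all 55681 probes.
Col25a1: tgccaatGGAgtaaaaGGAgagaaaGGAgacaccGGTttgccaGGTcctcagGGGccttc
The second pair is the shared start of Col4a1 and Col4a2, the genes of the most common basement membrane trimer, which lie head to head. Of 43 genes, 35 had a RefSeq window around their start (build GRCm38.p6), and Col4a1 with Col4a2 was the only pair whose windows overlapped on opposite strands, by 78 bases. Between both annotated starts, at chr8:11312805-11312826, Col4a1 is read from the minus strand and Col4a2 from the plus strand, as these 22 bases show.
Col4a1: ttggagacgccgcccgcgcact
Col4a2: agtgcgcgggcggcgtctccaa
The letters GGGCGG, searched on both strands, were found 1 time in the Col4a1 window and 3 times in the Col4a2 window, where overlapping bases are counted for both genes. They were in 23 of 38 collagen windows (60.5%), against 35.7% of all 32851 windows. CCAAT was found 1 time in each of both windows and in 13 of 38 collagen windows (34.2%), against 37.4% of all windows. TATAAA was in neither of them and in 5 of 38 collagen windows (13.2%), against 13.6% of all windows. These matches describe letters and were not tested as sites.

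Detection came first, because it sets which chains can be compared. Of the 43 genes, 23 had a probe well above background on all 8 arrays, 4 had one on 7, 1 on 6 and 1 on 4, and these 29 genes with 38 probes were tested. The other 14 genes were above background on at most 3 arrays. They included Col4a3, a chain of the kidney basement membrane, Col6a5 and Col10a1, the type X chain of growth cartilage, which were not above background on any array. The 11 fibrillar genes were all tested, as were 5 of 6 type IV genes, 3 of 6 type VI genes and 6 of 9 genes of the fibril-associated collagens with interrupted helices (FACIT) and related chains. None of the 3 short-chain genes (Col8a1, Col8a2, Col10a1) was tested.

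**Figure D1:**
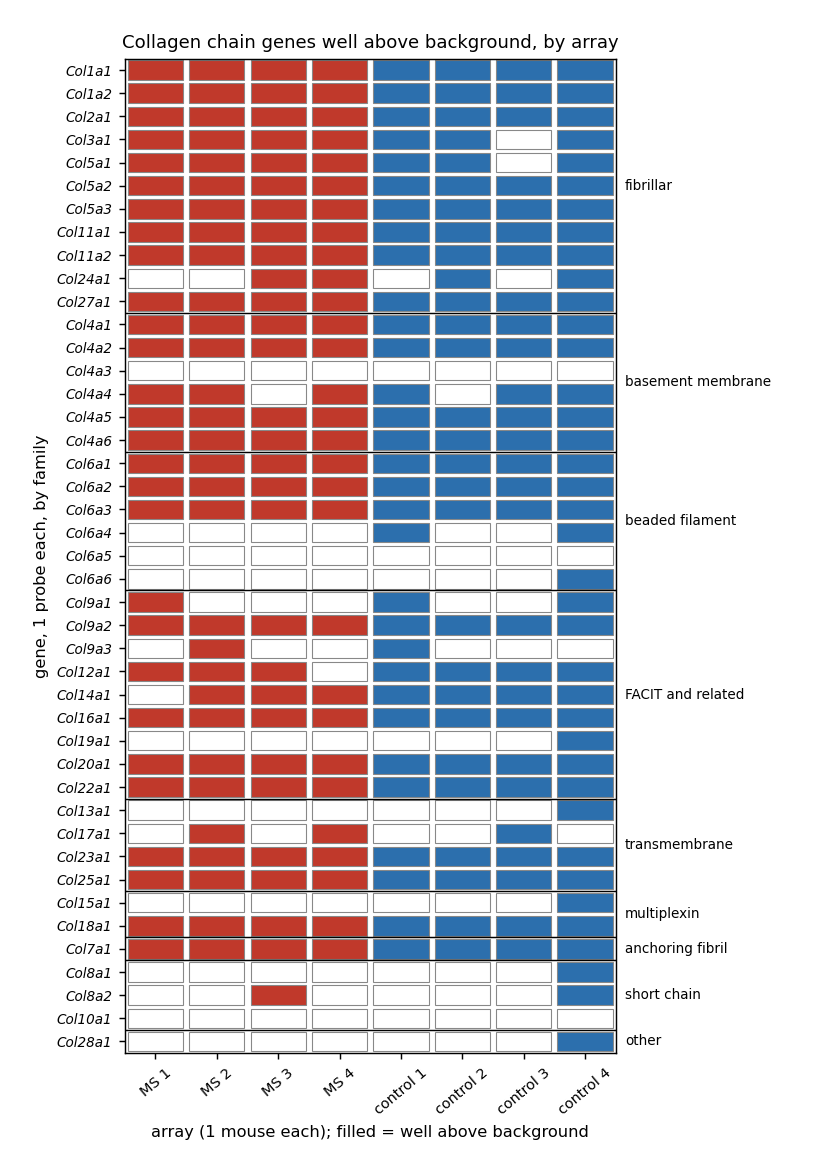
Collagen chain genes (rows, by family, 1 probe each) on the 8 arrays (columns, MS on the left), with a filled box where the probe was well above background. Control replicate 4 fills boxes of Col6a6, Col8a1, Col13a1, Col15a1, Col19a1 and Col28a1 that are empty on the other arrays.

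The number of collagen probes well above background was 36, 39, 37 and 38 of 68 in MS mice, against 40, 37, 34 and 53 in control mice. Control replicate 4 thus stood apart, with 77.9% of collagen probes and 69.7% of all probes above background, against 57.3% to 61.2% of all probes on the other 7 arrays. In all, 13 collagen probes were above background in control mice alone, 12 of them on 1 array and 1 on 2 arrays, and all 13 were too dim to be tested. Apart from those of Col6a4, they were above background on control replicate 4 alone. Without that array only the probes of Col6a4 remained, both above background on control replicate 1. The share of all probes seen in control mice alone was not computed. Results that rest on control replicate 4 are therefore also given without it. All 28 pairs of arrays correlated between 0.989 and 0.9945 across tested probes, and none was a copy of another.

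No collagen chain gene passed the threshold (adjusted p under 0.05, limma, Benjamini-Hochberg over all 33111 tested probes). By 1 probe per gene, the tested one with the highest mean level, 0 of 29 genes were called, against 0.00439% of all 22759 tested genes (1 gene), and the smallest adjusted p among the 29 was 0.132. In bulk tissue, fewer cells of a type and less RNA per cell cannot be told apart, which holds for every difference given here. At an unadjusted p under 0.05, 4 of 29 genes were lower in MS mice (Col5a3, Col9a2, Col16a1 and Col23a1), against 7.98% of all genes, and 0 were higher, against 5.85% of all genes. MS and control values lay apart without overlap in 2 of 29 genes, Col5a3 and Col9a2, both lower in MS mice, against 5.24% of all genes, and in 0 genes that were higher, against 3.65%. The count of 4 was 2 without control replicate 4, 2 without control replicate 2 and 1 without MS replicate 2, and whether its share differs from that of all genes was not tested. Other settings called more genes of the whole array at the adjusted threshold, namely 1.70% with background corrected by another method (normexp), 1.36% with the deposited log2 values, 1.72% with a variance trend and robust moderation and 0.338% with median scaling, and again 0 collagen genes in each.

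In sign, 21 of 29 genes were lower in MS mice, against 11386 of all 22759 genes, and the median log2 difference (MS minus control) of the 29 genes was -0.09, against 0.00 for all genes. The median was -0.07 without control replicate 4. Per mouse, the median deviation of the 29 genes from their own means over the 8 arrays was 0.04, -0.06, -0.03 and -0.08 in MS mice, against -0.07, 0.10, -0.06 and 0.18 in control mice. The groups thus overlapped, with control replicate 4 at the top. With median scaling 18 of the 29 genes were lower. The median SE of a collagen gene was 0.15, against 0.10 for all genes, and the median absolute difference was 0.15, against 0.10.

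**Figure D2:**
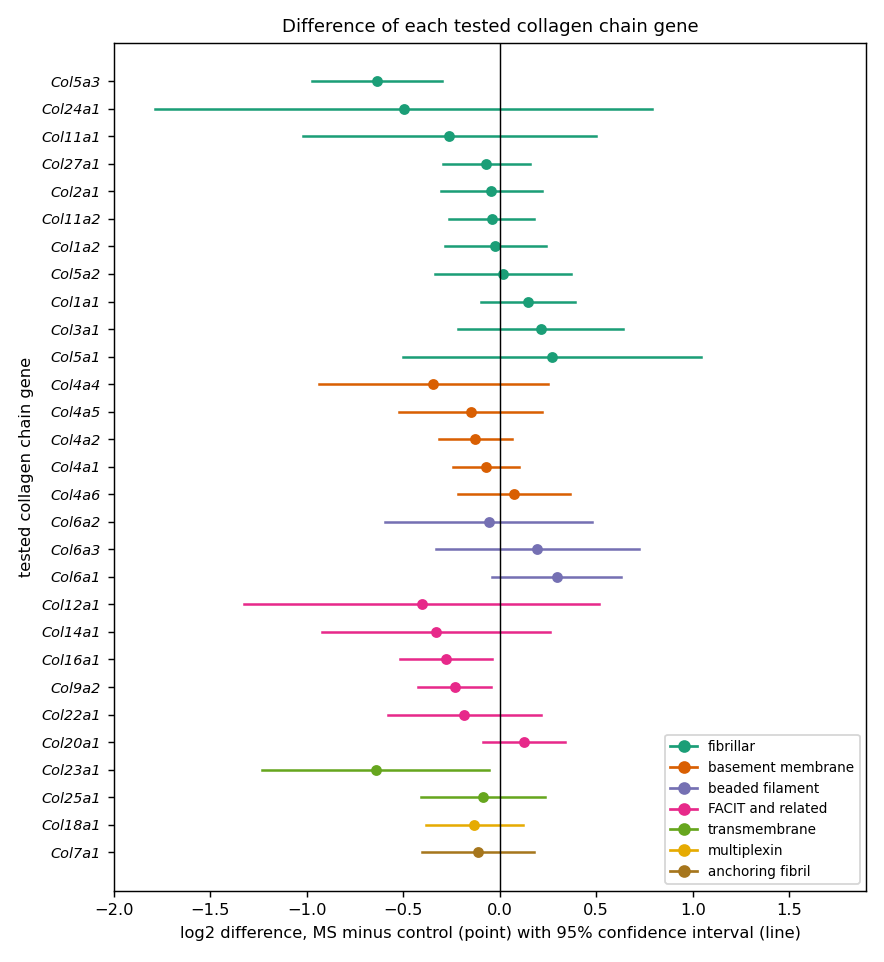
Log2 difference (MS minus control, horizontal axis) of the 29 tested collagen chain genes, 1 probe each, coloured by family, with 95% confidence intervals of the limma fit, 4 mice per group. The intervals of Col5a3, Col9a2, Col16a1 and Col23a1 lie below 0, and those of the other 25 genes include 0.

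Among the fibrillar chains, 7 of 11 were lower in sign and 4 higher, with a median difference of -0.04. The lowest was Col5a3, which encodes a chain of type V collagen, the collagen that regulates fibril assembly. Col5a3 had levels of -2.90, -3.10, -3.40 and -2.87 in MS mice, against -2.32, -2.65, -2.57 and -2.18 in control mice. Every MS mouse was below every control mouse. The difference was -0.64 (SE 0.15, 95% confidence interval -0.97 to -0.30), or 0.643 of the control level, with an adjusted p of 0.132 (limma). Without overlap, the sign within any slide row or column was bound to be negative. By slide row the difference was -0.51 and -0.76, and by column it was -1.08, -0.32, -0.22 and -0.92. It ranged from -0.71 to -0.52 when single mice were left out. With normexp it was -0.30 and with the deposited log2 values -0.37, both also negative.

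Of the other type V chains, Col5a1 differed by 0.27 (SE 0.34, adjusted p = 0.777) and Col5a2 by 0.02 (SE 0.15, adjusted p = 0.977, limma), and neither difference was beyond the spread between mice. Col1a1 and Col1a2 form type I collagen, the main fibril of connective tissue. Col1a1 had levels of -2.35, -2.52, -2.41 and -2.75 in MS mice, against -2.55, -2.60, -2.85 and -2.61 in control mice. Col1a2 had levels of -0.13, -0.49, -0.58 and -0.64 in MS mice, against -0.50, -0.45, -0.35 and -0.44 in control mice. Both groups overlapped in both genes, with differences of 0.15 (SE 0.11, adjusted p = 0.585) for Col1a1 and -0.02 (SE 0.11, adjusted p = 0.953) for Col1a2. In Col1a2, MS replicate 1 was the highest of all mice, and the 4 control mice lay within a narrow band (SD 0.06).

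Col3a1 encodes the fibrillar chain of vessel walls and other elastic tissues. Its levels were -4.10, -4.64, -4.14 and -4.01 in MS mice, against -4.77, -4.21, -4.64 and -4.11 in control mice, and the probe was above background in 4 MS mice and 3 control mice. The difference was 0.21 (SE 0.19, adjusted p = 0.663), with overlapping groups and a sign that turned with normexp (-0.02). The remaining fibrillar genes (Col2a1, Col11a1, Col11a2, Col24a1 and Col27a1) had differences from -0.50 for Col24a1, which was above background on only 4 arrays and had an SE of 0.56, to -0.04 for Col11a2.

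The genes of the basement membrane network gave small differences. Of the 5 tested, 4 were lower in sign and 1 higher, with a median of -0.13. Col4a1 had levels of -0.77, -0.95, -0.88 and -0.95 in MS mice, against -0.87, -0.79, -0.90 and -0.71 in control mice. The groups overlapped, and the difference was -0.07 (SE 0.07, 95% confidence interval -0.24 to 0.10, adjusted p = 0.725). The probe of Col4a1 is spotted 10 times on each array, of which 9 or 10 spots were kept, and the SD between spots of 1 array was 0.07 to 0.10, about as large as the SD between mice (0.09 in MS mice and 0.08 in control mice).

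Col4a2 had levels of 0.30, 0.33, 0.12 and 0.28 in MS mice, against 0.45, 0.33, 0.25 and 0.50 in control mice. Control replicate 4 was the highest and MS replicate 3 the lowest. The difference was -0.13 (SE 0.08, 95% confidence interval -0.32 to 0.06, adjusted p = 0.543). The chains of the other type IV networks differed by -0.34 (Col4a4, SE 0.26), -0.15 (Col4a5, SE 0.16) and 0.07 (Col4a6, SE 0.13). A second, dimmer probe of Col4a6 had -2.01 in MS replicate 4 and -4.94 to -4.34 in the other 7 mice, and its difference of 0.61 (SE 0.59) rests on that mouse.

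Col6a1 had the highest positive difference of the 29 genes, which did not pass the threshold. The gene encodes a chain that must join those of Col6a2 and Col6a3 to form the type VI monomer. Its levels were 4.80, 4.80, 4.18 and 4.49 in MS mice, against 4.28, 4.45, 4.25 and 4.12 in control mice. MS replicates 1, 2 and 4 were above all control mice, and MS replicate 3 was among them. The difference was 0.29 (SE 0.15, 95% confidence interval -0.04 to 0.63, adjusted p = 0.416, limma), and its unadjusted p was under 0.05 in 4 of the 11 alternatives that kept all mice.

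Its partner Col6a2 had levels of -0.44, -0.98, -1.64 and -1.09 in MS mice, against -0.84, -0.81, -0.94 and -1.34 in control mice. The groups overlapped, with the highest and the lowest level both in MS mice, and the difference was -0.06 (SE 0.24, adjusted p = 0.946). Col6a3 differed by 0.20 (SE 0.23, adjusted p = 0.76). The gene Col6a4 was above background on control replicates 1 and 4 and Col6a6 on control replicate 4 alone, and neither was tested.

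Of the 6 tested FACIT and related genes, 5 were lower in sign, with a median difference of -0.26. Col9a2, a chain of the type IX collagen that sits on the surface of cartilage fibrils, had levels of 0.76, 0.73, 0.84 and 0.97 in MS mice, against 1.19, 0.99, 1.08 and 0.98 in control mice. The groups did not overlap, but MS replicate 4 and control replicates 2 and 4 were nearly level. The difference was -0.23 (SE 0.08, 95% confidence interval -0.42 to -0.05), with an adjusted p of 0.263 (limma). Its partner chains Col9a1 and Col9a3 were above background on 3 and 2 arrays and were not tested.

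Col16a1, which encodes a fibril-associated chain of several connective tissues, had levels of 1.35, 1.09, 1.33 and 1.33 in MS mice, against 1.33, 1.59, 1.55 and 1.75 in control mice. Control replicate 1 lay among the MS mice, and the other 3 control mice were above all of them. The difference was -0.28 (SE 0.10, 95% confidence interval -0.52 to -0.04), with an adjusted p of 0.297 (limma). A second tested probe of Col16a1 gave -0.29 (SE 0.13, adjusted p = 0.39). Without control replicate 4 the first probe gave -0.21. In the single column of the slide that holds control replicate 1 the difference of the first probe was 0.00, against -0.20, -0.25 and -0.66 in the other 3 columns. The remaining FACIT genes Col12a1, Col14a1, Col20a1 and Col22a1 had differences from -0.40 to 0.13 with overlapping groups, and the pair of tested probes of Col20a1 differed in sign.

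**Figure D3:**
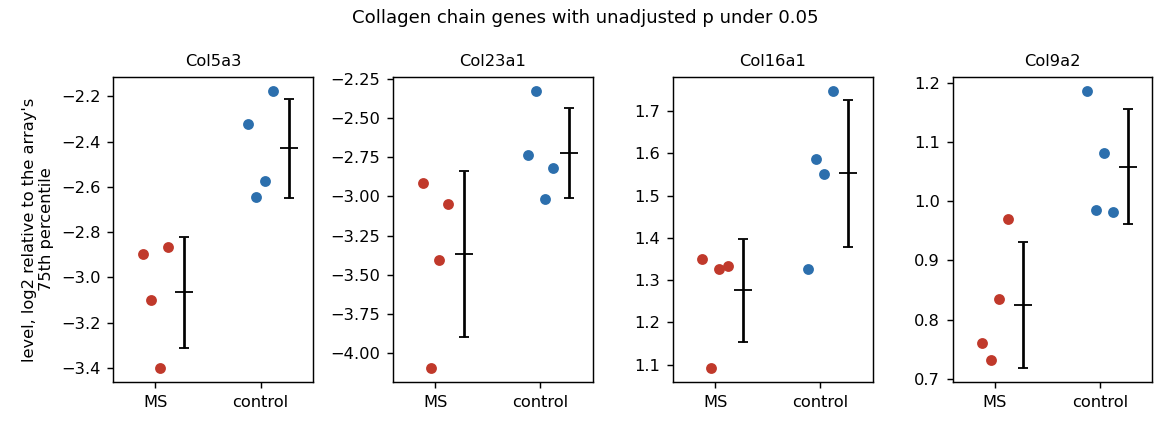
Levels (log2 relative to the array's 75th percentile) of the 4 collagen chain genes with unadjusted p under 0.05, 1 point per mouse, MS on the left, with mean and SD (n = 4) beside the points. The groups of Col5a3 and Col9a2 do not overlap, and those of Col23a1 and Col16a1 do.

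Of the transmembrane collagens, Col23a1 had levels of -2.91, -4.10, -3.41 and -3.05 in MS mice, against -2.73, -2.33, -3.01 and -2.82 in control mice. MS replicate 1 lay within the range of the control mice, and MS replicate 2 was the lowest of all. The difference was -0.64 (SE 0.26, 95% confidence interval -1.23 to -0.05), with an adjusted p of 0.32 (limma), and without single mice it ranged from -0.79 to -0.40, the last without MS replicate 2. With normexp it was -0.27 and with the deposited log2 values -0.32. A second tested probe of Col23a1 had levels of -3.72, -3.42, -4.16 and -3.41 in MS mice, against -3.20, -2.87, -3.40 and -3.19 in control mice. Those groups did not overlap, though MS replicates 2 and 4 lay just below control replicate 3, and the difference was -0.52 (SE 0.18, adjusted p = 0.27), or -0.21 with normexp and -0.28 with the deposited log2 values.

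Col25a1 encodes a membrane collagen of neurons whose shed ectodomain was first found in amyloid plaques, and its 4 tested probes split in pairs. They are numbered here from 1 to 4 by their order along the gene on chromosome 3. They were picked for description after their values were seen, since the rule of 1 probe per gene took only probe 3, the brightest. Probe 1 differed by -0.07 (SE 0.13, adjusted p = 0.851) and probe 3 by -0.09 (SE 0.14, adjusted p = 0.836), both with overlapping groups.

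Probe 2, whose sequence with the glycine codons is printed above, had levels of -3.39, -3.74, -3.66 and -3.95 in MS mice, against -3.07, -3.15, -3.05 and -2.48 in control mice. Probe 4 had levels of -4.16, -4.21, -4.17 and -4.03 in MS mice, against -3.43, -3.44, -2.74 and -3.37 in control mice. In both, every MS mouse was below every control mouse. Probe 2 differed by -0.75 (SE 0.17, adjusted p = 0.129) and probe 4 by -0.89 (SE 0.16, 95% confidence interval -1.25 to -0.54, adjusted p = 0.0851, limma). Probe 4 was the only collagen probe with an adjusted p under 0.05 in any alternative that kept all mice. These were the limit to probes above background on all arrays (0.0498, where 0.376% of all probes were called), a variance trend with robust moderation (0.0362, with 1.52% called) and a random block for the first part of the mouse number (0.0314, with 1.34% called). Each such first part occurred in 1 group only (5 and 7 in MS mice, 6 and 8 in control mice). The correlation within blocks was estimated at -0.11, and that fit called 443 probes of the array, against 1 in the main fit. A block with negative correlation makes no stricter test than the main fit, and the labels do not say what the number marks. Without control replicate 3, whose level was the highest, probe 4 differed by -0.73 (adjusted p = 0.0344, with 0.112% called). With normexp (1.48% called), the deposited log2 values (1.20%) and median scaling (0.290%), 0 of the collagen probes were called.

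The array design assigns probes 1 and 2 to 1 transcript of Col25a1 and probes 3 and 4 to another, so that each transcript had 1 probe of each kind. Probe 2 lies 384.8 kb, probe 3 413.5 kb and probe 4 416.0 kb from probe 1 (mm9), and the exons they fall in were not looked up, since no annotation of mm9 was used. Both probes with a difference were dim, between the lowest level counted as well above background (-5.44 to -4.80 by array) and the array's 75th percentile. Probes 1 and 3 lay in that range too, but were brighter. Their control means were -2.85 and -1.62, against -2.94 for probe 2 and -3.25 for probe 4. Their MS means were -2.92 and -1.70, against -3.68 for probe 2 and -4.14 for probe 4. Whether the differences depend on dimness was not tested. Without control replicate 4, the highest in probe 2, that probe differed by -0.59. With normexp probe 2 differed by -0.29 and probe 4 by -0.32, the smallest sizes in any setting.

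**Figure D4:**
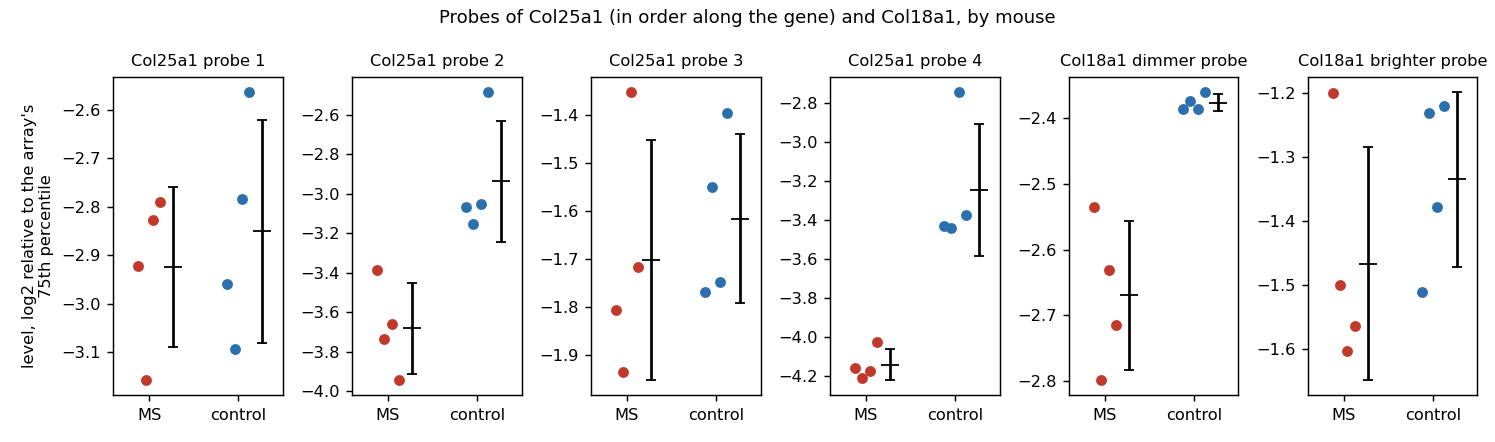
Levels (log2 relative to the array's 75th percentile) of 4 probes of Col25a1, in order along the gene, and 2 probes of Col18a1, 1 point per mouse, MS on the left, with mean and SD (n = 4). Probes 2 and 4 of Col25a1 and the dimmer probe of Col18a1 separate the groups, and the other 3 probes do not.

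Col18a1 encodes a multiplexin, a basement membrane collagen whose end fragment is endostatin, and its 2 probes differed in the same way. The brighter probe had levels of -1.20, -1.50, -1.60 and -1.56 in MS mice, against -1.51, -1.23, -1.38 and -1.22 in control mice, and the groups overlapped, with a difference of -0.13 (SE 0.11, adjusted p = 0.643). The dimmer probe had levels of -2.54, -2.80, -2.63 and -2.71 in MS mice, against -2.39, -2.37, -2.39 and -2.36 in control mice. The 4 control mice were nearly equal there (SD 0.01) and all MS mice lay below them. The difference was -0.29 (SE 0.07, adjusted p = 0.15, limma), and this probe too was picked after its values were seen.

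Counted by probe and not by gene, 29 of 38 tested collagen probes were lower in sign. At an unadjusted p under 0.05, 8 probes were lower, against 7.71% of all probes, and 0 were higher, against 6.35%. The groups did not overlap in 6 probes, all lower in MS mice, against 4.91% of all probes, and in 0 that were higher, against 3.76%. These 6 belong to 5 genes, Col5a3, Col9a2, Col18a1, Col23a1 and Col25a1. Probes of 1 gene are not independent, and 0 of the 38 probes passed the adjusted threshold, against 0.00302% of all probes.

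Pairs of chains were compared across the 8 mice. Of 11 pairs listed, 8 had both genes tested, 7 of them chains of the same collagen type and 1, Col1a2 with Col3a1, chains of type I and type III, which form separate trimers found in the same fibrils. None passed after adjustment over the 8 pairs (exact two-sided permutation test over 40320 pairings). Col4a1 and Col4a2, with their shared start, had Pearson r = 0.48 (exact p = 0.225, adjusted p = 0.36) and Spearman rho = 0.52 (exact p = 0.197, adjusted p = 0.315). Without the 2 mice farthest from the median of Col4a1, control replicate 4 and MS replicate 1, r was 0.14. Between deviations from the group means it was 0.32. Mice were left out by the first gene of a pair only, so that r does not check for mice apart in the second gene.

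Col6a1 and Col6a2 had r = 0.66 (exact p = 0.0714, adjusted p = 0.286) and rho = 0.62 (exact p = 0.115, adjusted p = 0.302). Their r was 0.58 without the 2 mice farthest from the median of Col6a1 and 0.89 between deviations from the group means. Col5a1 and Col5a2 had r = -0.84 (exact p = 0.00995, adjusted p = 0.0796) and rho = -0.69 (exact p = 0.0694, adjusted p = 0.302). Their r was -0.54 without the 2 mice farthest from the median of Col5a1 and -0.88 between deviations from the group means. The probe of Col5a1 was above background on 7 arrays, and control replicate 3, where it was not, had its lowest level. In the other 5 pairs r ranged from -0.26 for Col6a1 with Col6a3 to 0.53 for Col11a1 with Col11a2. Between deviations from the group means, these 5 ranged from -0.55 for Col6a1 with Col6a3 to 0.64 for Col4a5 with Col4a6. Each row of the slide held 4 mice, too few for a correlation of its own.

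**Figure D5:**
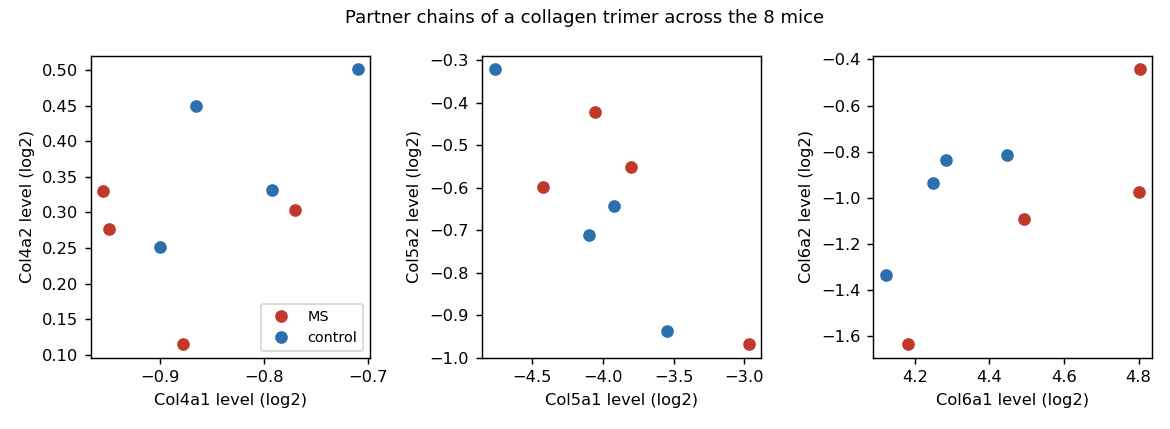
Levels (log2 relative to the array's 75th percentile) of partner chains in the 8 mice, 1 point per mouse, for Col4a1 with Col4a2, Col5a1 with Col5a2 and Col6a1 with Col6a2. The points of Col6a1 with Col6a2 slope upward (r = 0.66) and those of Col5a1 with Col5a2 downward (r = -0.84), and neither passed after adjustment over 8 pairs.

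Genes that make, bind or cut collagen were taken from 4 lists. Of 33 genes for collagen processing, 29 were tested, 18 lower and 11 higher in sign, with a median difference of -0.03, and none passed the threshold. The lowest was Sparc, a secreted protein that binds collagen and is abundant in astrocytes. Sparc had levels of 6.46, 6.27, 6.36 and 6.49 in MS mice, against 7.23, 7.15, 7.27 and 7.44 in control mice. Every MS mouse was below every control mouse, and the difference was -0.88 (SE 0.09), just outside the threshold with an adjusted p of 0.0535 (limma). It passed in 6 of the alternatives with all mice, among them normexp, median scaling and the deposited values.

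The summed linear level of the processing list was 130 to 145 in MS mice, against 196 to 228 in control mice, and without Sparc 52.9 to 56.1 in MS mice, against 53.8 to 55.0 in control mice. The gap of the list was thus that of Sparc. P4ha1, a catalytic subunit of the prolyl 4-hydroxylase that stabilises the triple helix, had 0.84, 0.51, 0.96 and 0.87 in MS mice, against 0.21, 0.54, 0.30 and 0.33 in control mice. MS replicate 2 lay among the control mice, and the difference was 0.45 (SE 0.12, adjusted p = 0.161).

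Of the prolyl 3-hydroxylase family and its partners, which modify single prolines, P3h3 differed by 0.22, P3h4 by -0.31 and Crtap by -0.27, all with overlapping groups, unadjusted p under 0.05 and adjusted p of at least 0.29. In the processing list, 3 of 29 tested genes were lower at an unadjusted p under 0.05 (7.98% of all genes) and 2 higher (5.85%). Serpinh1, the collagen chaperone HSP47, differed by 0.01 (adjusted p = 0.99). Sparc, P4ha1 and P4ha3 are in the list of changed genes that the study drew from these samples, so their direction is no independent evidence. By the probe used here P4ha3 differed by 0.08 (adjusted p = 0.709). With the deposited values, Sparc alone was called by its probe used here, so the study may list P4ha1 and P4ha3 through other probes. Genes were matched to that list by name. No tested collagen chain gene is in that list.

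Of 11 collagen receptors, such as the discoidin domain receptors Ddr1 and Ddr2 and the integrin subunits, 9 were tested, 5 lower and 4 higher in sign. At an unadjusted p under 0.05, 0 were lower or higher, against 7.98% and 5.85% of all genes. Of the 16 laminin, nidogen and other basement membrane partners, all tested, 8 were lower and 8 higher in sign. At an unadjusted p under 0.05, 1 was lower (7.98% of all genes) and 2 were higher (5.85%). The laminin chain Lama1 differed by -0.24, the laminin chain Lamb1 by 0.20 and Nid2, a nidogen that links laminin to type IV collagen, by 0.27, with unadjusted p under 0.05, adjusted p of at least 0.314 and overlapping groups in each.

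Of 12 genes for collagen breakdown, 8 were tested, 7 lower and 1 higher in sign, with a median difference of -0.12. Mmp15, a membrane-type matrix metalloproteinase, had -1.87, -1.80, -1.65 and -1.74 in MS mice, against -1.13, -1.09, -1.39 and -0.995 in control mice. Timp4, an inhibitor of metalloproteinases, had 0.73, 0.60, 0.89 and 0.88 in MS mice, against 1.59, 1.22, 1.25 and 1.47 in control mice. The groups did not overlap in these 2 of the 8 tested genes, both lower in MS mice, against 5.24% of all genes. The differences were -0.62 for Mmp15 (SE 0.10, adjusted p = 0.0709) and -0.61 for Timp4 (SE 0.11, adjusted p = 0.0909). Both are in the list of the study.

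The makeup of the punches was read from marker lists. For the cells that hold brain collagen, 10 of 12 markers of meninges and perivascular fibroblasts were tested, with a summed linear level of 2.51 to 2.96 in MS mice, against 2.35 to 3.09 in control mice. The 10 endothelial markers summed to 15 to 17.8 in MS mice, against 15 to 16 in control mice, and the 8 markers of pericytes and smooth muscle to 9.88 to 11.7 in MS mice, against 8.68 to 11.0 in control mice. Of the fibroblast markers, Lum, a small proteoglycan that binds fibrils, differed by -0.57 (adjusted p = 0.287), and Igf2 and Slc47a1 were too dim to be tested. The 5 tested markers of choroid plexus and ependyma, of 8 listed, summed to 0.859 to 1.17 in MS mice, against 0.954 to 1.14 in control mice, and Ttr was too dim to be tested. In that list Otx2, a homeobox factor, differed by -0.64 (adjusted p = 0.207) with overlapping groups. The groups overlapped in all 4 sums. Such sums weigh the brightest probes most, so they do not speak for each marker of a list. Of the 8 pericyte and smooth muscle markers, 7 were higher in sign in MS mice. The groups did not overlap in 2 of them, Rgs5 (0.23, adjusted p = 0.173) and Pdgfrb (0.10, adjusted p = 0.554), against 3.65% of all genes, and 2 had unadjusted p under 0.05, Rgs5 and Abcc9 (0.44, adjusted p = 0.296), against 5.85% of all genes.

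The 10 markers of medium spiny neurons, the defining cells of the NAc, were all well above background on all 8 arrays and all higher in sign in MS mice, 4 of them with unadjusted p under 0.05 (5.85% of all genes), and they summed to 896 to 1080 in MS mice, against 619 to 969 in control mice. Markers of pallidal neurons, 5 of 6 of which are in the list of the study, were lower in sign in all 6 cases with no overlap between groups, against 5.24% of all genes (median -1.34, sums of 3.97 to 8.21 in MS mice, against 9.99 to 17 in control mice). Those of oligodendrocyte precursors were lower in sign in 4 of 4 cases (median -0.30), 3 of them with no overlap (5.24% of all genes). Of these, C1ql1 is in the list of the study. Of the 5 astrocyte markers, 4 were lower in sign, and their sums overlapped (14.4 to 15.7 in MS mice, against 14.9 to 19.1 in control mice). The lowest was Agt, which is in the list of the study, at -1.999 (SE 0.26, adjusted p = 0.0633). The other astrocyte markers differed by -0.66 (Gfap) to 0.06 (Aqp4), with overlapping groups. None of the markers passed the adjusted threshold. The part of these cell types in the collagen values was not tested.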

How the data were processed

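RNA of 8 mice (40 ng each) was hybridised to Agilent arrays on 1 slide in 1 scan. Agilent Feature Extraction 10.10.1.1 made the deposited scanner output, in which each spot has a linear intensity, already background-subtracted in the signal used here. A second deposited table holds log2 values of 31261 probes, 32 of them for collagen. Within each array it followed the log2 mean signal (r from 0.9997 to 0.9999, slope 0.983 to 1.02), and every column had a median of 8.01, so it holds uncentred log2 levels without background subtraction, while its normalization is not given in the sources used here. Per the submitters' processing notes limma was used, its version not given. The array design in the headers differs from that in the methods, and headers were followed.

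Control and outlier-flagged spots (122 to 189 per array) were left out, the processed signal was divided by the 75th percentile of the array, log2 was taken and spots of a probe were averaged. A probe entered the test if it was well above background on 4 or more of the 8 arrays, and testing was done with limma 3.58.1 (lmFit, eBayes) in R 4.3.3, with Benjamini-Hochberg adjustment over 33111 probes. The number of arrays limits the precision. The script was tested on simulated data of this comparison with 33111 probes, where 42.6% of changes of 0.6 log2 units, 71.2% of 1 unit and 95.5% of 2 units were called. There 8 unchanged probes were called as well. The simulated noise was normal and independent between probes and arrays, without effects of whole arrays. In the real data 1 of 33111 probes was called, so these shares need not hold for collagen genes here. Values by mouse were given for collagen genes with unadjusted p under 0.05 or without overlap, for those past the threshold in any fit with all mice, and for Col1a1, Col1a2, Col3a1, Col4a1, Col4a2, Col6a1, Col6a2 and Col18a1. Genes of other lists were named at unadjusted p under 0.05, and the others named there were chosen after their values were seen. Col26a1, listed on the array under an older name, was not included by the rule. The members and lists were chosen with earlier results of these data known. Gene names are those of the headers, and names of list genes were updated through RefSeq (GRCm38.p6). Mice were numbered in the order of their records, and whether mice of a group shared a litter is not given, so p-values measure the spread between these samples. Alternatives were normexp background, quantile normalization, median scaling, the deposited log2 values, other filters, variance trend with robust moderation, slide row, slide column and mouse number as blocks, the mean over probes and leaving out each mouse.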

Additional observations from a re-analysis of the deposited data

Results flagged for a closer look

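In 66 groups of 4 values of tested collagen probes, 6 held a mouse that stood apart from the other 3 by Dixon's test at the 95% level, which chance does in about 1 of 20 groups. Col7a1 was -0.085 in MS replicate 4, against 0.23 to 0.29 in the other MS mice. Col16a1 was 1.09 in MS replicate 2, against 1.33 to 1.35 in the other MS mice. Col20a1 was -1.995 in MS replicate 1, against -2.08 to -2.07 in the other MS mice, and -2.45 in control replicate 1, against -2.11 to -2.08 in the other control mice. Probe 4 of Col25a1 was -2.74 in control replicate 3, against -3.44 to -3.37 in the other control mice, and probe 2 was -2.48 in control replicate 4, against -3.15 to -3.05 in the other control mice.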

How the results depend on the processing

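No collagen gene passed the adjusted threshold in any of the 19 alternatives run, and the median difference of the collagen genes was negative in all of them, from -0.14 to -0.05 with single mice left out. The count of lower genes at unadjusted p under 0.05, 4 in the report, was 2 with median scaling, 3 with the slide column as a block, 6 with probes averaged by gene, and 1 to 5 with single mice left out (1 without MS replicate 2, 2 without control replicate 2 and 2 without control replicate 4). The count of higher genes, 0 in the report, was 1 with normexp, the deposited log2 values, the variance trend and the slide row as a block, and 0 to 1 with single mice left out. The count of called processing and receptor genes, 0 in the report, was 1 with normexp, median scaling, the deposited values, probes above background on all arrays and the random block, 2 with the variance trend, and 0 to 1 with single mice left out. Signs turned for Col1a2 (0.0233 with median scaling, 0.0103 with the deposited values, and -0.14 to 0.037 with single mice left out), for Col3a1 (-0.0224 with normexp) and for Col6a2 (-0.25 to 0.14 with single mice left out). The cause was not tested. Col25a1 probe 4, followed after its values were seen, was also past the threshold without control replicate 3 (-0.73, adjusted p = 0.0344). Over its alternatives its adjusted p ran from 0.0314 (with the random block, no stricter than the main fit) to 0.268. Its difference ran from -0.96 to -0.32. No paired analysis was possible by mouse number because the labels number the mice without pairing them across groups. Each slide column held 1 MS and 1 control array, and the column was fitted as a block. Dim chains limit the data: 14 of 43 genes were not tested, and Col24a1 had an SE of 0.56.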
